A study of Mus musculus with 12 samples.

Results

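The fatty acid elongases and desaturases are the enzymes that lengthen fatty acids and place double bonds in them. The set examined in mouse liver held 10 genes, 5 elongases (Elovl1, Elovl2, Elovl3, Elovl5 and Elovl6) and 5 desaturases (Fads1, Fads2, Fads3, Scd1 and Scd2). Members were taken by gene symbol, in a set chosen with earlier results of these data known. All 10 were found among the 24537 genes of the expression table. A filter on low values kept 10593 genes for testing, 9 of the members among them, and left Scd2 untested.

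Liver RNA-Seq was available for 12 mice in 4 groups of 3, control (Con) and calorie-restricted (CR) mice killed at day 25 and Con and CR mice killed at day 30 of the diet. The study placed these days on either side of a slowdown of hepatic protein synthesis under CR. All mice were male C57Bl/6J mice, 6 weeks old at the start, housed singly, assigned at random and given heavy water before sacrifice. Con mice ate NIH41 chow ad libitum, and CR mice received a fortified NIH41 diet cut by 30%, given each day at midday. The amount of food, its hour and its formula thus differed together between Con and CR mice, and their parts in any difference cannot be told apart. The hour at which livers were collected was not given in the sources used here.

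Expression was deposited as FPKM, in which a gene's exon reads are divided by exon length and by library depth, a scale on which genes of different length can be compared within a library. Libraries carry the column names of the table, Con7 to Con9 and CR7 to CR9 at day 25 and Con10 to Con12 and CR10 to CR12 at day 30. The steps between low FPKM values gave a depth of 18407954, 18377869 and 16855204 reads in the Con libraries of day 25 and of 21195826, 15748707 and 20110031 reads in the CR libraries. At day 30 the Con libraries held 20482085, 21329231 and 22546451 reads and the CR libraries 23326344, 19449074 and 23345549. The fewest reads in any library were 62 for Elovl3 and 33 for Scd2, whereas Scd1 had at least 10536 reads in each library.

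Elongases of the ELOVL family catalyse the condensation that opens each round of fatty acid elongation in the endoplasmic reticulum, where a short unit from malonyl-CoA is added to an acyl-CoA, and each enzyme prefers certain chain lengths and degrees of unsaturation. The desaturases draw electrons from cytochrome b5 to insert double bonds: the SCD enzymes turn saturated into monounsaturated acyl chains, and FADS1 and FADS2 act within the pathway from the essential dietary fatty acids to arachidonic acid and the long omega-3 fatty acids. In liver their products enter triglycerides, cholesteryl esters and phospholipids, and many of the genes are known targets of the transcription factors SREBP-1c, LXR and PPAR alpha.

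In Con liver the members spanned a wide range of levels. Scd1 had the highest mean FPKM, 276 ± 133 at day 25 and 429 ± 164 at day 30 (SD, n = 3), and Scd2 the lowest, 0.566 ± 0.179 and 0.525 ± 0.189. Between them at day 25 came Fads2 at 160 ± 30.7, Elovl2 at 128 ± 9.31, Fads1 at 100.1 ± 3.59, Elovl5 at 82.5 ± 30.9 and Elovl3 at 46.8 ± 6.65. Elovl1 at 13.6 ± 1.21, Elovl6 at 6.62 ± 0.560 and Fads3 at 3.06 ± 0.442 were less abundant. Among neighbours in this order, the ranges of Scd1 and Fads2 and those of Fads1 and Elovl5 overlapped. In Con mice at day 30 the order of the means was the same. The neighbours that overlapped were then Fads2 and Elovl2, Elovl2 and Fads1, and Elovl5 and Elovl3.

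In CR liver the order changed at a few places. At day 25 the mean of Fads2, 287 ± 59.97, stood above that of Scd1, 262 ± 146, with overlapping ranges, and Fads1 stood above Elovl2. Scd1 and Fads1, and Elovl3 and Elovl1, also overlapped there. At day 30 Elovl3 was the 9th of 10, at 2.86 ± 1.58, against the 6th in the other 3 groups, and Elovl6 was the 6th, at 15.7 ± 0.717. In that group Scd1 and Fads2, and Fads3 and Elovl3, were the neighbours with overlapping ranges. The coefficient of variation between mice was largest for Scd1 in both Con groups, 48.2% and 38.2%, and for Scd1 at day 25 and Elovl3 at day 30 in the CR groups, 56.0% and 55.4%.

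**Figure D1:**
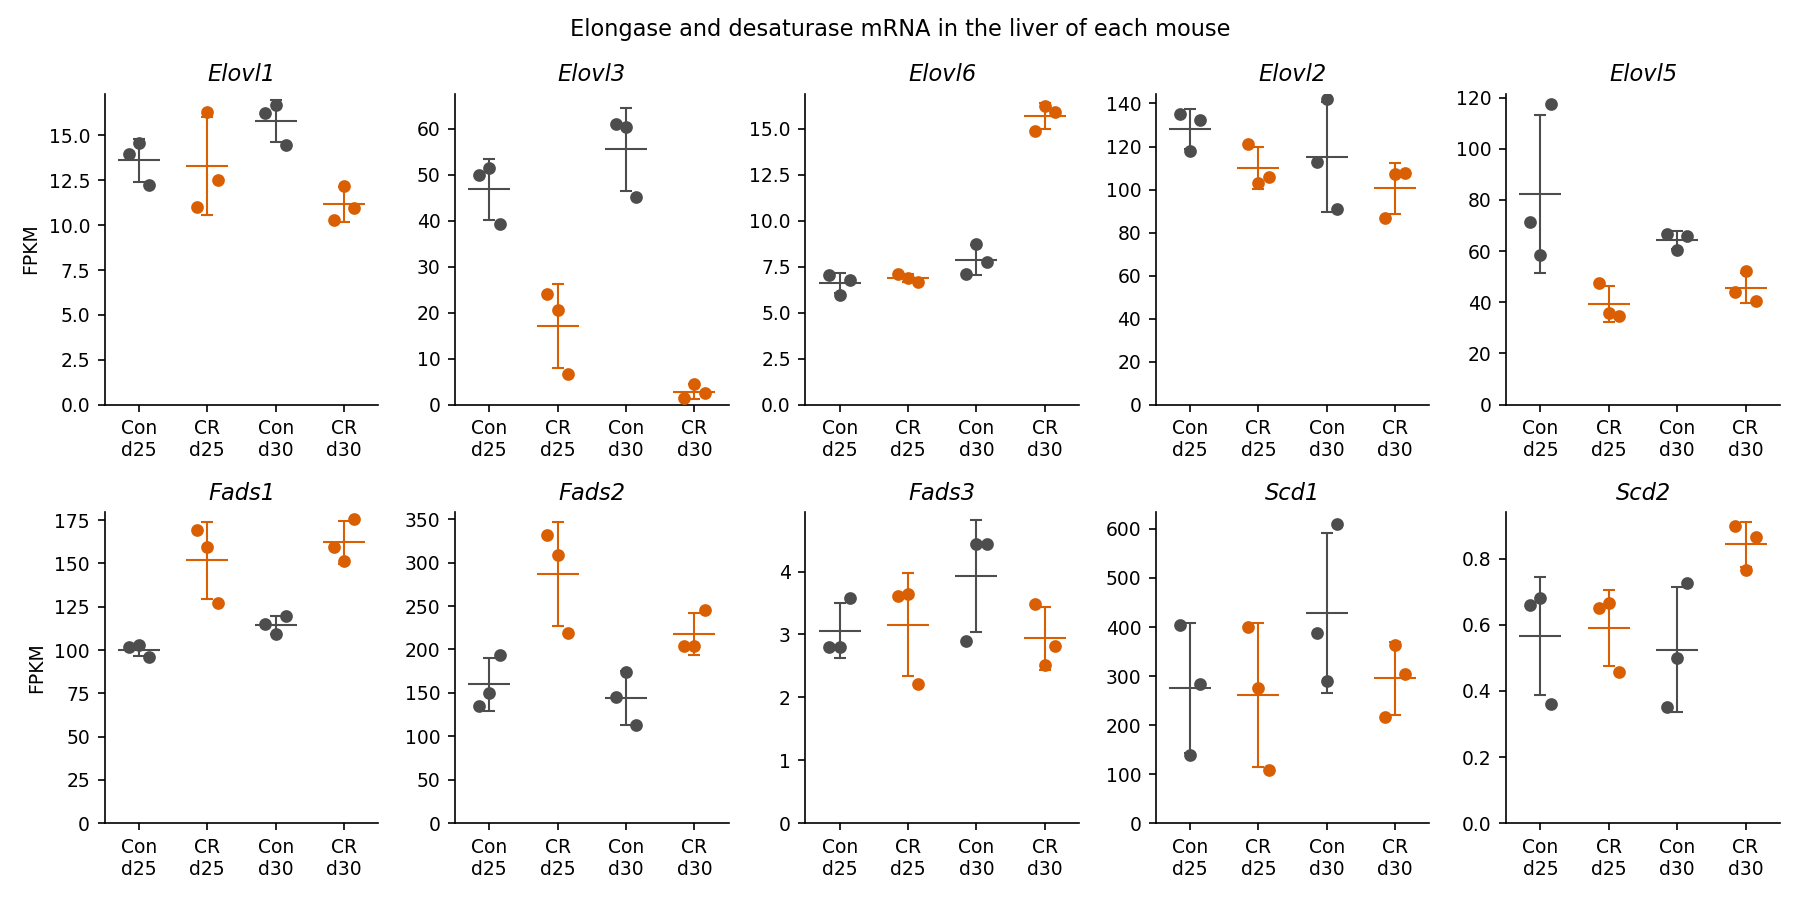
FPKM of the 10 members in the liver of each mouse, with Con in grey and CR in orange at day 25 (d25) and day 30 (d30), points for mice and lines for the group mean ± SD (n = 3). The CR points of Elovl3 lie below all Con points at both days, and those of Elovl6 lie above all other points at day 30, between 14.9 and 16.2 FPKM.

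The comparison of CR with Con mice asked which members differed under restriction before and after the slowdown. At day 25, 4 of the 9 tested members passed the threshold, Fads1 and Fads2 upward and Elovl3 and Elovl5 downward, by limma with a Benjamini-Hochberg adjusted p under 0.1 over all 10593 genes. The 2 higher members compare with 5.6% of all tested genes called higher and the 2 lower members with 9.34% called lower. At day 30, 5 members passed, Elovl6, Fads1 and Fads2 upward against 8.33% of all tested genes, and Elovl1 and Elovl3 downward against 16.4%. With the fold change of at least 2 that the study also required, 2 members, Elovl3 and Elovl5, remained at day 25, where 1.48% of genes did, and 1 member, Elovl3, at day 30, where 2.21% did. Elovl5 met that fold narrowly, at a log2 fold change of -1.001, and was under it without Con9 (-0.72), CR8 or CR9 and with median-ratio scaling, while Fads2 reached it without CR9. The median log2 fold change over the tested members was -0.05 at day 25 and -0.31 at day 30, beside -0.04 and -0.07 over all tested genes. Fold changes are on the log2(FPKM + 1) scale, which understates the changes of genes with low FPKM.

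By ranges alone, CR mice lay above all Con mice for 2 of the 10 members and below them for 2 at day 25, where 10.2% and 18.0% of all tested genes did so. At day 30 they lay above for 4 members and below for 3, beside 12.1% and 24.3% of all tested genes. The members that separated at day 30 without passing the test were Elovl5 and the untested Scd2. Over all genes, 593 were called higher and 989 lower at day 25, and 882 higher and 1737 lower at day 30. With 1 library left out the calls in both directions ran from 893 to 1589 at day 25, beside 1582, and from 1497 to 2680 at day 30, beside 2619. With libraries scaled by median ratios the splits were 933 and 795 at day 25 and 1320 and 1228 at day 30, so that the balance of directions over all genes depended on the scaling, while the 4 members called at day 25 and the 5 called at day 30 kept their directions and calls.

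**Figure D2:**
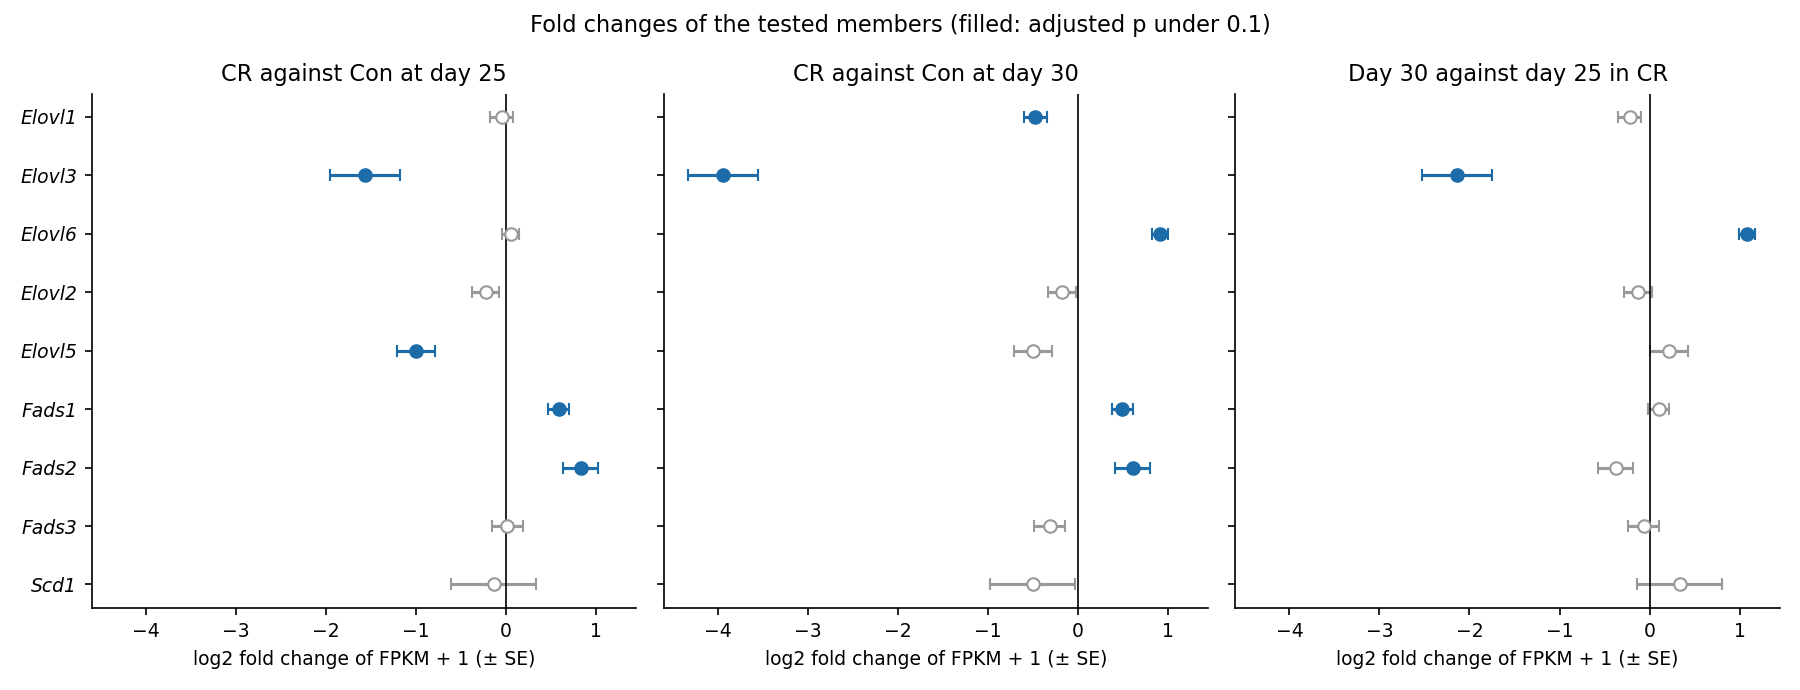
Log2 fold changes of FPKM + 1 (x axis) with their standard errors for the 9 tested members, for CR against Con at day 25 and day 30 and for day 30 against day 25 in CR mice. Filled points passed an adjusted p of 0.1 in limma with Benjamini-Hochberg adjustment; Elovl3 has the largest decrease in each panel, -1.57, -3.94 and -2.14.

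Of the elongases of saturated and monounsaturated chains, Elovl3 showed the largest difference. The enzyme makes very long saturated and monounsaturated fatty acids, and in liver its mRNA is known to be higher in males and to vary with the time of day. At day 25 its FPKM was 49.8, 51.5 and 39.2 in the Con mice and 24.1, 20.54 and 6.66 in the CR mice. In the groups of day 30 it was 60.9, 60.4 and 45.1 in the Con mice and 1.42, 4.56 and 2.61 in the CR mice. All CR mice lay below all Con mice at both days, and all CR mice of day 30 lay below those of day 25, the nearest of which was CR9 at 6.66.

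Under CR, Elovl3 fell by 1.57 on the log2 scale at day 25 (SE 0.38, adjusted p = 0.0261, limma with Benjamini-Hochberg adjustment) and fell by 3.94 at day 30 (SE 0.38, adjusted p = 7.6e-05), lower in 3 of 3 CR mice each time. The means differed 2.74-fold at day 25 and 19.4-fold at day 30. From the lowest log2 fold change upward, Elovl3 ranked 21st of the 10593 tested genes at day 25 and 11th at day 30. Without CR9, whose level was the lowest of the CR mice of day 25, the value at day 25 was -1.03, with an adjusted p of 0.0552 by limma and Benjamini-Hochberg. Over the alternatives tried the adjusted p at day 25 ran from 0.0116 to 0.0765. In bulk liver, fewer cells of a type and less RNA per cell cannot be told apart.

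Elovl6, which lengthens palmitate to stearate and palmitoleate to vaccenate, was called at day 30 and not at day 25, although the test of the difference between the days, given further on, did not pass. At day 25 its FPKM was 7.07, 5.99 and 6.79 in the Con mice and 7.12, 6.89 and 6.66 in the CR mice, and the groups overlapped. The Con mice of day 30 had 7.11, 8.72 and 7.76 FPKM and the CR mice 14.9, 16.2 and 15.9 FPKM. The CR mice of day 30 stood clear of the other 9 mice, and their means of 15.7 ± 0.717 and 7.86 ± 0.811 differed 2.00-fold. The log2 fold change was 0.05 at day 25 (SE 0.092, adjusted p = 0.770 in limma, Benjamini-Hochberg) and 0.92 at day 30 (SE 0.092, adjusted p = 8.6e-05), where CR mice were higher in 3 of 3. Leaving out each library in turn left the value at day 30 between 0.85 and 0.99.

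Elovl1, an elongase of saturated and monounsaturated chains that supplies very long acyl groups of sphingolipids, ranged from 10.3 to 16.7 FPKM over the 12 mice. At day 25 its groups overlapped, and the log2 fold change was -0.05 (SE 0.13, adjusted p = 0.868, limma with Benjamini-Hochberg adjustment). In Con mice of day 30 it was 16.2, 16.7 and 14.5 FPKM, and in CR mice 10.3, 12.2 and 10.9 FPKM, with no overlap. There Elovl1 fell by 0.47 on the log2 scale (SE 0.13, adjusted p = 0.0281 in limma with Benjamini-Hochberg adjustment), lower in 3 of 3 CR mice. Without CR10 the value was -0.42 and no longer passed, with an adjusted p of 0.104 by limma and Benjamini-Hochberg; over the alternatives the adjusted p ran from 0.0109 to 0.104.

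Elovl5 and Elovl2 lengthen polyunsaturated chains, ELOVL5 the shorter and ELOVL2 the longer ones on the way to docosahexaenoic acid. Elovl5 at day 25 was 71.4, 58.7 and 117 FPKM in the Con mice and 47.4, 36.0 and 34.6 FPKM in the CR mice. The values of day 30 were 66.6, 60.4 and 66.0 FPKM in the Con mice and 43.9, 52.3 and 40.6 FPKM in the CR mice. CR mice lay below Con mice at both days, and Con9 stood high in its group. Expression of Elovl5 fell by 1.00 on the log2 scale at day 25 (SE 0.21, adjusted p = 0.0122, limma with Benjamini-Hochberg adjustment), lower in 3 of 3 CR mice, and without Con9 the value was -0.72. At day 30 the value was -0.49 (SE 0.21, unadjusted p = 0.0362, adjusted p = 0.128 in limma), which did not pass.

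At day 30 Elovl5 did pass in limma when only the groups compared entered the fit, with a Benjamini-Hochberg adjusted p of 0.0338, and when Con8 (0.0845) or Con9 (0.0396), both libraries of day 25 that enter only the shared estimate of spread, was left out. Over all its alternatives the adjusted p ran from 0.0338 to 0.269. Elovl2 was an abundant elongase, with 86.9 to 142 FPKM over the 12 mice, and its CR and Con ranges overlapped at both days. Its log2 fold change was -0.22 at day 25 and -0.18 at day 30, with adjusted p of 0.401 and 0.449 in limma with Benjamini-Hochberg adjustment. Leaving out 1 library moved the value at day 30 to between -0.33 and -0.015.

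Fads1 and Fads2, the front-end desaturases of the polyunsaturated pathway, were higher under CR at both days. Fads1 makes arachidonic and eicosapentaenoic acid from their immediate precursors, and at day 25 it was 102, 103 and 96.0 FPKM in the Con mice and 169, 159 and 127 FPKM in the CR mice. Con mice of day 30 had 115, 109 and 120 FPKM and CR mice 159, 151.4 and 176 FPKM. No CR mouse lay within the range of the Con mice of its day. Fads1 rose by a log2 fold change of 0.59 at day 25 (SE 0.12, adjusted p = 0.00955 in limma after Benjamini-Hochberg adjustment) and of 0.49 at day 30 (SE 0.12, adjusted p = 0.0135), higher in 3 of 3 CR mice each time. The means differed 1.52-fold and 1.41-fold.

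Fads2 carries out the entry step of that pathway, on linoleic and alpha-linolenic acid. At day 25 its FPKM was 135, 150 and 194 in the Con mice and 332, 309 and 219 in the CR mice. By day 30 it was 145, 175 and 112 in the Con mice and 204, 204 and 246 in the CR mice. The groups did not overlap at either day, and CR9 was the CR mouse of day 25 nearest to the Con mice, as it was for Fads1. Fads2 rose by a log2 fold change of 0.83 at day 25 (SE 0.20, adjusted p = 0.0212, limma with Benjamini-Hochberg adjustment) and of 0.61 at day 30 (SE 0.20, adjusted p = 0.0516), higher in 3 of 3 CR mice each time.

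The Fads2 call at day 30 depended on single libraries. Its value was 0.63 without Con10 (adjusted p = 0.102, limma with Benjamini-Hochberg adjustment), 0.45 without Con12 (0.179), 0.66 without CR10 (0.103) and 0.52 without CR12 (0.141), and with no filter on low genes its adjusted p was 0.101. Over the alternatives it ran from 0.0347 to 0.179. For the call at day 25 the adjusted p ran from 0.0139 to 0.0843 and was under 0.1 without each library in turn.

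Fads3, a desaturase of the same cluster that acts on sphingoid bases, was expressed at 2.22 to 4.44 FPKM, and its ranges overlapped at both days. Its log2 fold change was 0.02 at day 25 and -0.31 at day 30, with adjusted p of 0.964 and 0.228 in limma with Benjamini-Hochberg adjustment. Without Con10, the lowest Con mouse of day 30, the value at day 30 was -0.47 and passed with an adjusted p of 0.0942, over alternatives that ran from 0.0942 to 0.468.

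Scd1, the main stearoyl-CoA desaturase of liver and the enzyme that makes oleate, varied more between mice than between diets. At day 25 it was 405, 139 and 283 FPKM in the Con mice and 400.3, 276 and 108 FPKM in the CR mice. The corresponding values of day 30 were 387, 290.2 and 609 FPKM in the Con mice and 217, 364 and 305 FPKM in the CR mice. The groups overlapped at both days, and Con12 was the highest of the 12 mice. The log2 fold change was -0.14 at day 25 (SE 0.47, adjusted p = 0.894 in limma, Benjamini-Hochberg) and -0.50 at day 30 (SE 0.47, adjusted p = 0.486). With standard errors of this size a change of the size seen in Fads1 could not be told from the spread between mice. Leaving out 1 library moved the value at day 30 to between -0.75 and -0.21. Over both days the value of Scd1, -0.32, then ran from -0.53 to -0.10.

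Scd2, an isoform known mainly from brain and from liver before weaning, had 0.35 to 0.898 FPKM, or 33 to 114 reads. At day 30 the Con mice had 0.35, 0.5 and 0.725 FPKM and the CR mice 0.898, 0.765 and 0.866 FPKM, with no overlap. An exact permutation test of log2(FPKM + 1), two-sided, gave a difference of 0.28 at day 30 with p = 0.1, the smallest p that 3 mice against 3 allow. At day 25 the difference was 0.03 with an exact permutation p = 0.9, and over both days, permuted within days, it was 0.15 with p = 0.105.

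Over both days, with day as a covariate, 6 of the 9 tested members passed in limma with Benjamini-Hochberg adjustment, 3 upward, where 14.5% of all tested genes did, and 3 downward, where 26.1% did. Of these only Elovl3 also reached the fold of 2, as did 1.66% of genes, with a log2 fold change of -2.75 (SE 0.42, adjusted p = 4.2e-04 in limma with Benjamini-Hochberg adjustment). By the same limma fit and adjustment, Fads1 rose by 0.54 (adjusted p = 3.1e-04), Fads2 rose by 0.72 (0.00176), Elovl6 rose by 0.49 (0.0152) and Elovl5 fell by 0.75 (0.00374) on the log2 scale. This fit gives 1 value for both days. At day 25 alone Elovl6 (0.05) and Elovl1 (-0.05) were not called, and at day 30 alone Elovl5 (-0.49) was not. In limma with Benjamini-Hochberg adjustment Elovl1 fell by 0.26 (0.0778), a call that was lost with median-ratio scaling (-0.19, adjusted p = 0.158), with no filter (0.123) and without any 1 of 9 of the 12 libraries, over alternatives with adjusted p of 0.0083 to 0.166. The limma values of Elovl2 at -0.20 (Benjamini-Hochberg adjusted p = 0.158), Fads3 at -0.15 (0.391) and Scd1 at -0.32 (0.481) did not pass, but Elovl2 did without Con12, at -0.27 with an adjusted p of 0.0484, over a range of 0.0484 to 0.380.

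The comparison between the days asked whether members moved across the slowdown. It shares its mice with the comparisons of CR and Con above, so the values are not independent of them. From day 25 to day 30, 2 of the 9 tested members passed in CR mice in limma with Benjamini-Hochberg adjustment, Elovl6 upward, where 0.123% of all tested genes did, and Elovl3 downward, where 0.198% did. Both also reached the fold of 2, as did 0.142% of genes. Elovl6 rose by 1.08 on the log2 scale (SE 0.092, Benjamini-Hochberg adjusted p = 4.5e-04 in limma) and was 1st by p among all 10593 genes, of which 34 were called (2 to 45 with 1 library left out). Its means of 6.89 ± 0.231 and 15.7 ± 0.717 FPKM differed 2.28-fold, and without any 1 library the value stayed between 1.06 and 1.12. In the same limma fit Elovl3 fell by 2.14 (SE 0.38, Benjamini-Hochberg adjusted p = 0.0781), a 5.97-fold difference of the means.

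The call of Elovl3 between the days in CR mice was less firm. In limma with Benjamini-Hochberg adjustment it was lost without CR7 (-1.82, adjusted p = 0.223), CR8 (-1.93, 0.211), CR10 (-1.84, 0.245) or CR12 (-2.13, 0.142), and without Con8 (0.114), which enters only the estimate of spread. It was also lost with no filter on low genes (0.198) and with only the 2 CR groups in the fit (0.187). Over its alternatives the adjusted p ran from 0.00363 to 0.245. By ranges, Elovl6 and Scd2 were higher in all CR mice of day 30 than in those of day 25, and Elovl3 was lower, beside 6.32% of tested genes higher and 8.39% lower. The median log2 fold change was -0.06 over the members and -0.01 over all genes.

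In Con mice, 0 members passed between the days in limma with Benjamini-Hochberg adjustment, as did 0% of all tested genes, while 765 of the 10593 genes had an unadjusted p under 0.05. Elovl6 was among these 765, with a log2 fold change of 0.22 (SE 0.092, unadjusted p = 0.0346, Benjamini-Hochberg adjusted p = 0.652 in limma). Elovl6 and Fads1 were higher in all Con mice of day 30 than in those of day 25, beside 7.23% of tested genes higher and 4.42% lower. With Con7 left out, 22 of all tested genes passed, and 0 members. The median was 0.20 over the members and 0.02 over all genes.

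The difference between the CR effects of the days was tested as an interaction. In limma with Benjamini-Hochberg adjustment 0 members passed, against 0.00944% of all tested genes, which is 1 gene (Snord55, named after its value was seen; 0 to 5 genes with 1 library left out), while 366 genes had an unadjusted p under 0.05. Elovl6, Elovl3 and Elovl1 were among these 366. Elovl6 was 2nd by p of all genes, with a difference of 0.86 (SE 0.13, unadjusted p = 1.97e-05, Benjamini-Hochberg adjusted p = 0.104 in limma). Elovl3 was 9th, with -2.38 (SE 0.54, unadjusted p = 8.6e-04, Benjamini-Hochberg adjusted p = 0.826 in limma). For Elovl1 limma gave -0.42 (SE 0.18, unadjusted p = 0.0380, Benjamini-Hochberg adjusted p = 1.00). The CR effects on these genes were thus not shown to differ between the days at the threshold used.

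Elovl6 lay close to that threshold. It passed in limma with a pseudocount of 0.1 (0.93, Benjamini-Hochberg adjusted p = 0.0925) and without Con11 (0.93, 0.0797), over alternatives of 0.0797 to 0.412. Elovl3 passed in limma without CR9 (-2.91, Benjamini-Hochberg adjusted p = 0.0601), over alternatives of 0.0601 to 1.00. The median difference was -0.22 over the members and -0.03 over all genes.

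The enzymes work beside others, which were counted from lists chosen by function. Beside the counts of all lists stand the shares of all tested genes, 5.6% called higher and 9.34% lower at day 25 and 8.33% higher and 16.4% lower at day 30, with medians of -0.04 and -0.07. Of 8 further elongases and desaturases, Elovl4, Elovl7, Scd3, Scd4, Degs2 and Fa2h stayed under the filter, with at most 0.411 FPKM in any library, and Degs1 and Fads6 were tested. Degs1, the dihydroceramide desaturase, was called lower at both days, at -0.30 (adjusted p = 0.0659, limma with Benjamini-Hochberg adjustment) at day 25 and -0.26 (0.0762) at day 30. The call of day 25 was lost without Con7, Con8, CR7 or CR9 and that of day 30 without Con10, Con12, CR10 or CR12, with adjusted p of up to 0.179 and 0.199 over the alternatives. Both were lost with only the groups compared in the fit, and that of day 30 also with median-ratio scaling and with the replicate block by column number. Fads6 had -0.17 at day 25 and -0.34 at day 30, with adjusted p of 0.504 and 0.125 in limma with Benjamini-Hochberg adjustment. With 1 library left out the count of this list ran from 0 to 1 at day 25 and from 0 to 2 at day 30.

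The partners of the members are the remaining enzymes of the elongation cycle and the cytochrome b5 system that feeds electrons to the desaturases, and 9 of these 10 genes were tested. At day 25, 1 was called higher and 0 lower, and at day 30, 1 higher and 1 lower, with medians of -0.03 and -0.18. Each of these counts of 1 in 9 stands beside a share of all tested genes, 5.6% higher at day 25 and 8.33% higher and 16.4% lower at day 30, from which so small a count cannot be told apart. Cyb5a, the microsomal cytochrome b5, was 982, 1098 and 996 FPKM in the Con mice and 1300.4, 1516 and 1256 FPKM in the CR mice of day 25, and at day 30 the CR mice again lay above the Con mice. It rose by 0.40 at day 25 (adjusted p = 0.0516, limma with Benjamini-Hochberg adjustment) and by 0.33 at day 30 (0.0702). These calls were lost without Con7, Con9 or CR8 at day 25 and without Con10, Con11, Con12, CR10 or CR11 at day 30, and at both days with no filter and with only the groups compared, with adjusted p of up to 0.148 and 0.2004. Cyb5b, the isoform of the outer mitochondrial membrane, had -0.41 at day 30 (adjusted p = 0.0995), called in limma but lost without any 1 of 8 of the 12 libraries (Con8, Con10, Con11, Con12, CR7, CR8, CR10 and CR12; adjusted p of up to 0.305) and with a pseudocount of 0.1, no filter or median-ratio scaling, and the count at day 30 was 1 with the replicate block by column number.

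Fatty acid synthesis supplies the palmitate and the malonyl-CoA that the elongases use, and all 8 genes of its list were tested. At day 25, 2 were called higher, and at day 30, 3, with 0 lower at either day and list medians of 0.11 and 0.47. Thrsp, a lipogenic nuclear protein, rose by 2.29 on the log2 scale at day 25 (adjusted p = 3.9e-04, limma with Benjamini-Hochberg adjustment) and by 2.24 at day 30 (1.7e-04). Acacb, the mitochondrial acetyl-CoA carboxylase, rose by 0.97 (0.0199) and by 1.14 (0.00589). Acaca, the cytosolic carboxylase that makes malonyl-CoA, rose by 0.50 at day 30 (0.00501). Fasn, the synthase itself, had -0.19 at day 25 and 0.44 at day 30, with adjusted p of 0.624 and 0.171. The Con mice of day 30 had 25.6, 20.4 and 41.0 FPKM of Fasn. Of these only Con12, the highest, lay within the range of the CR mice of that day. Without Con12 the count at day 30 was 6.

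Within CR mice, Acaca and Fasn were the genes of this list called from day 25 to day 30, both higher, where 0.123% of all tested genes were, with a list median of 0.53. In Con mice the list median was 0.34 with 0 genes called, beside 0.02 over all tested genes, and the median of the interaction was 0.12 with 0 called, so that the shift of this list was not shown to be confined to CR mice. Con12 was the highest Con mouse of day 30 for Acly, Acacb, Fasn, Acss2 and Thrsp, but not for Acaca, Me1 and Slc25a1. It also had the highest sum of adipocyte markers, 6.23 FPKM. How far the Con median rested on Con12 was not tested. Acaca was 2.73, 3.11 and 2.42 FPKM in the CR mice of day 25 and 4.499, 4.25 and 5.03 FPKM in those of day 30. Fasn was 16.1, 19.3 and 17.7 FPKM in the CR mice of day 25 and 41.9, 29.9 and 44.0 FPKM in those of day 30. As with Elovl6, the CR mice of day 30 lay above those of day 25 for both genes. Acaca rose by 0.58 (adjusted p = 0.0677, limma with Benjamini-Hochberg adjustment) and Fasn rose by 1.07 (0.0857), beside 0.07 and 0.44 in Con mice (0.893 and 0.683). The call of Acaca was lost without Con8, CR7, CR9, CR10 or CR12, with an adjusted p of up to 0.20, and that of Fasn without any 1 of 9 of the 12 libraries (all but Con11, Con12 and CR11), with an adjusted p of up to 0.28. With no filter on low genes both calls were lost. That of Acaca was also lost with only the groups compared, and that of Fasn with a pseudocount of 0.1, TPM or quantile normalization.

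Transcription regulators of lipid synthesis were tested for all 14 genes of their list. At day 25, 2 were called higher and 1 lower, and at day 30, 1 higher and 3 lower, with medians of 0.04 and -0.21. Insig2, which holds the SREBP precursors in the endoplasmic reticulum, was 93.9, 91.3 and 91.1 FPKM in the Con mice and 36.2, 26.4 and 62.8 FPKM in the CR mice of day 25. It fell by 1.21 on the log2 scale at day 25 (adjusted p = 0.00891, limma with Benjamini-Hochberg adjustment) and by 1.30 at day 30 (0.00351). Ppargc1a, a coactivator of fasting metabolism, rose by 1.10 at day 30 (0.00998). Srebf1, the gene of SREBP-1c, had 0.06 at day 25 and 0.11 at day 30, with adjusted p of 0.939 and 0.865. The other called genes were Ppara at 0.54 (0.0469) and Ppargc1a at 0.74 (0.0772) at day 25 and Srebf2 at -0.45 (0.0307) and Scap at -0.37 (0.0566) at day 30, with limma and Benjamini-Hochberg adjustment as before. Ppara was lost without Con7, CR7 or CR9 (adjusted p of up to 0.159 in limma) and Ppargc1a at day 25 without any of Con7, Con8, Con9, CR7 and CR9, with no filter and with TPM (up to 0.218). Srebf2 was lost without Con10, Con12 or CR10 (up to 0.119) and Scap without these or CR11 (up to 0.163). The count at day 25 was thus 1 without Con7, CR7 or CR9, and that at day 30 was 2 without Con10, Con12 or CR10.

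Acyl-CoA synthetases and acyltransferases activate fatty acids and place the products into lipids, and 12 of the 16 genes listed were tested. At day 25, 1 was called higher and 0 lower, and at day 30, 1 higher and 2 lower, with medians of 0.05 and 0.06. Dgat2, which completes triglycerides, rose by 0.72 at day 25 (adjusted p = 0.0130, limma with Benjamini-Hochberg adjustment). Acsl1, the main long-chain acyl-CoA synthetase of liver, fell by 0.91 at day 30 (0.0210). Dgat2 at day 30 (0.47, adjusted p = 0.0553 in limma) was lost without Con11, Con12, CR10 or CR11, with an adjusted p of up to 0.186, and Slc27a2 (-0.36, 0.0808) without Con9 or any library of day 30, with no filter, with median-ratio scaling and with the replicate block by column number, with an adjusted p of up to 0.219. The count at day 25 was 2 with the replicate block, with median-ratio scaling and without Con8. At day 30 it was 5 with median-ratio scaling, with quantile normalization, with only the groups compared and without Con7, and 1 without Con11, Con12, CR10 or CR11.

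Peroxisomal beta-oxidation shortens very long chains and so runs against elongation, and all 10 genes of its list were tested. At day 25, 0 were called higher and 1 lower, and at day 30, 0 higher and 4 lower, with medians of -0.10 and -0.25, where 9.34% and 16.4% of all tested genes were called lower. The 1 gene of 10 at day 25 is near that share. Acox2, the oxidase of branched chains and bile acid precursors, was 95.2, 94.7 and 104 FPKM in the Con mice and 46.3, 59.1 and 61.3 FPKM in the CR mice of day 25. It fell by 0.82 at day 25 (adjusted p = 0.00250, limma with Benjamini-Hochberg adjustment) and by 1.00 at day 30 (4.0e-04). Scp2, the sterol carrier protein with peroxisomal thiolase activity, fell by 0.89 at day 30 (0.00998). Acox3 fell by 0.39 at day 30 (0.0258 in limma) and Hsd17b4 fell by 0.34 (0.0448), the latter lost without Con11, CR10 or CR12 and with median-ratio scaling (adjusted p of up to 0.144). The count at day 25 was 2 without Con7 and with quantile normalization.

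The clock list was examined because the hour of feeding differed between the diets and liver Elovl3 is known to vary with the time of day, and 15 of its 16 genes were tested. At day 25, 4 were called higher and 2 lower, and at day 30, 5 higher and 2 lower, with medians of 0.35 and 0.27. Nr1d1, the repressor REV-ERB alpha, was 45.9, 50.9 and 39.8 FPKM in the Con mice and 8.79, 6.96 and 8.23 FPKM in the CR mice of day 25. The day 30 values were 53.7, 40.7 and 57.4 FPKM in the Con mice and 9.91, 8.94 and 9.70 FPKM in the CR mice. The groups stood far apart at both days, and the CR mice of the days lay close together. Nr1d1 fell by 2.37 at day 25 (adjusted p = 5.1e-06, limma with Benjamini-Hochberg adjustment) and by 2.28 at day 30 (4.0e-06).

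Cry1, another repressor of the clock, rose by 1.47 at day 25 (adjusted p = 3.9e-04, limma with Benjamini-Hochberg adjustment) and by 1.63 at day 30 (7.6e-05). Per2 rose by 1.35 (3.9e-04) and by 0.97 (0.00132), and Clock fell by 0.66 (0.0176) and by 0.76 (0.00572). The calls of Ciart at day 25 (1.24, limma adjusted p = 0.0715) and of Per1 and Nfil3 at day 30 (0.82 and 0.73, 0.0658 and 0.0677) were each lost with no filter and without any 1 of 4 libraries. These were Con7, CR7, CR8 and CR9 for Ciart (adjusted p of up to 0.233 in limma), Con10, Con11, CR10 and CR12 for Per1 (0.225) and Con11, Con12, CR10 and CR12 for Nfil3 (0.230), whose value was 0.48 without Con12. Between the days 0 clock genes were called in CR mice and 0 in Con mice by limma with Benjamini-Hochberg adjustment, where 34 and 0 of all tested genes were. The part of feeding time in the member values was not tested.

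Over the 7 lists, 0 genes were called in the interaction by limma, and 0 between the days in Con mice. Over both days the counts of higher and lower genes were 0 and 2 for the further elongases and desaturases, 1 and 2 for the partners, 4 and 0 for fatty acid synthesis and 2 and 3 for the regulators. They were 3 and 2 for the synthetases and acyltransferases, 0 and 4 for the peroxisomal genes and 9 and 2 for the clock genes. Beside them stood 1536 and 2768 of all tested genes, or 14.5% and 26.1%. This balance of directions also depended on the scaling, with 2234 and 1979 after median-ratio scaling and 2031 and 2003 after quantile normalization. With 1 library left out the counts in both directions ran from 1 to 2 for the further elongases and desaturases, 1 to 4 for the partners, 2 to 4 for fatty acid synthesis and 5 to 8 for the regulators. For the synthetases and acyltransferases they ran from 3 to 5, for the peroxisomal genes from 4 to 5 and for the clock genes from 10 to 11. The limma calls of Fads6, Hsd17b12, Cyb5r4, Acss2, Acaca, Dgat1, Slc27a2 and 1 clock gene over both days were each lost without any 1 of 6 to 9 of the 12 libraries, and each but those of Hsd17b12 and Dgat1 also with no filter. With median-ratio scaling those of Fads6, Hsd17b12, Cyb5r4 and Slc27a2 were lost, and with quantile normalization that of Cyb5r4.

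**Figure D3:**
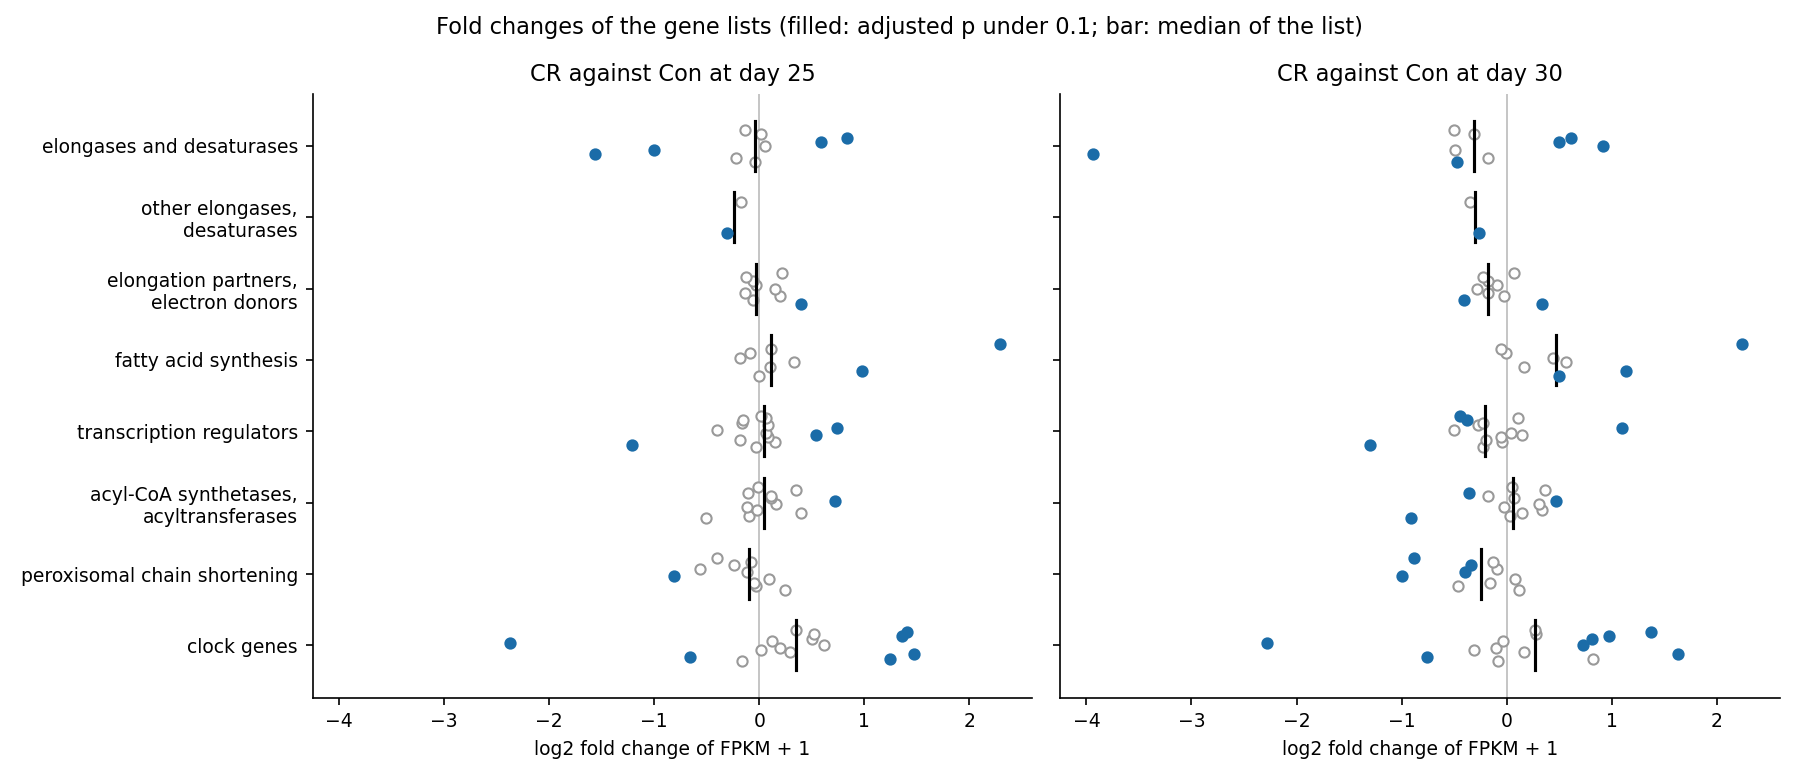
Log2 fold changes of FPKM + 1 of CR against Con mice (x axis) at day 25 and day 30 for the tested genes of the members and of 7 lists, each point a gene, filled where limma with Benjamini-Hochberg adjustment gave an adjusted p under 0.1, with a bar at the median. The medians of the members are -0.05 and -0.31, those of fatty acid synthesis 0.11 and 0.47.

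Markers of liver cell types were summed to see what moved with the members. Hepatocyte markers (6 genes, Alb the most abundant) had mean sums of 46516 FPKM in Con against 52165 FPKM in CR liver at day 25, with Tat called higher by limma, and of 41216 against 58302 FPKM at day 30, with Alb, Cps1 and Tat called higher and Apob lower. Alb held most of each sum, so the sums mainly follow Alb. Apoa1 (log2 fold change -0.24 at day 25 and -0.23 at day 30) and Ttr (0.19 and 0.12) were called at neither day. Apob had -0.37 and -0.44. Adipocyte markers (6 genes, 0 of them tested, 5 under 1 FPKM in each library) summed to at most 6.23 FPKM, in Con12, the mouse with the highest Scd1, and to 0.075 to 1.26 FPKM in the other 11 libraries, with Cfd the most abundant. None of the marker genes was at 0 in all libraries. Erythroid markers (3 genes, Alas2 the most abundant) were 31.9, 34.7 and 35.7 FPKM in the Con mice and 22.4, 28.2 and 14.1 FPKM in the CR mice of day 25. At day 30 they were 46.2, 41.7 and 44.2 FPKM in the Con mice and 14.4, 20.05 and 11.8 FPKM in the CR mice, lower under CR at both days, with Alas2 called at both by limma.

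Kupffer cell and macrophage markers (6 genes, Cd5l the most abundant) had means of 43.9 and 26.6 FPKM at day 25, with 3 genes (Clec4f, Vsig4 and Cd5l) called lower by limma, and of 40.3 and 36.6 FPKM at day 30, with 1 (Marco) called higher. Stellate cell and fibroblast markers (6 genes, Dcn the most abundant) had 54.2 and 63.0 FPKM at day 25, with Reln called higher, and 51.0 and 69.5 FPKM at day 30, with Reln, Dcn and Des called higher. Endothelial markers (5 genes, Clec4g the most abundant) had 36.0 and 41.7 FPKM, then 30.0 and 40.4 FPKM, with Stab2 called higher at both days and Clec4g at day 30. Cholangiocyte markers (5 genes, Spp1 the most abundant) had 16.1 and 13.3 FPKM, then 11.8 and 13.3 FPKM, and lymphocyte markers (4 genes, Nkg7 the most abundant) had 0.582 and 0.404 FPKM, then 1.07 and 0.587 FPKM. The part of cell composition in the member values was not tested.

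The genes most like the 3 members with the largest changes over both days were sought by the Pearson correlation of log2(FPKM + 1) over the 12 libraries, given as a description since the groups are shared by all genes. Elovl3 was most like Serpina1e (r = 0.981), Mup7 (0.979), Sh3pxd2a (0.966) and Mup3 (0.965). Within groups, after removal of the group means, these correlations were 0.911, 0.736, 0.693 and 0.896. Serpina1e, an antitrypsin gene, averaged 3393 FPKM in Con and 816 FPKM in CR liver at day 25, then 3244 and 57.5 FPKM at day 30. Mup7, a major urinary protein gene, had 1689 and 323 FPKM, then 1837 and 46.8 FPKM. Both belong to families of near-identical copies whose reads the counting could split, so their levels are uncertain.

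Elovl5 was most like Pigl (r = 0.931), Pgm3 (0.913), Tex12 (0.902) and Efna5 (0.897) over the 12 libraries, and within groups the correlations were 0.810, 0.767, 0.722 and 0.675. Fads2 was most like Fbxo42 (0.969), Srsf4 (0.965), Gm12992 (0.962) and Dcun1d3 (0.943), with 0.916, 0.856, 0.848 and 0.869 within groups. The level of Srsf4, a splicing factor, averaged 18.1 FPKM in Con and 24.2 FPKM in CR liver at day 25, then 16.9 and 21.0 FPKM at day 30.

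In position, 6 of the 10 members lie on chromosome 19 of mm10. Fads3 (chr19:10041548-10059671, plus strand), Fads2 (chr19:10064164-10101503, minus) and Fads1 (chr19:10182888-10196872, plus) lie within 155.3 kb, and a gap of 4493 bases separates Fads3 from Fads2. Within this cluster Fads1 and Fads2 were called higher at both days and Fads3 at neither. Scd2 (chr19:44293676-44306862, plus) and Scd1 (chr19:44394450-44407709, minus) lie within 114.0 kb, with Scd4 between them. Elovl3 (chr19:46131899-46135694, plus) lies on the same chromosome, whereas Elovl6 (chr3:129532386-129638493, plus), Elovl1 (chr4:118428093-118432952, plus), Elovl5 (chr9:77917365-77984519, plus) and Elovl2 (chr13:41182382-41220403, minus) lie apart.

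Some bases of the members' exons are shared with other genes. Elovl3 shares 10 exon bases with Pitx3 on the other strand, 0.506% of its exon bases, Elovl1 shares 53 with Cdc20 (1.94%), Elovl6 shares 34 with an antisense gene, Gm35986 (0.529%), and Scd2 shares 61 with Mir5114 (1.12%). These neighbours were named after the annotation was searched, and whether the counting used strand was not given in the sources used here. Pitx3 was itself called lower under CR by limma with Benjamini-Hochberg adjustment, at -0.65 (adjusted p = 0.0473) at day 25 and -0.95 (0.00558) at day 30. Mir5114 was called at neither day, and Cdc20 was not tested. Whether reads of Elovl3 and Pitx3 were counted for each other was not tested. Of windows of 100 bases of its transcript, Scd1 shares 1.76% with Scd3, 0.982% with Scd2, 0.532% with AC123853.3 and 0.348% with Scd4, Scd2 shares 0.879% with Scd1 and 0.476% with Scd3, and Elovl6 shares 0.868% with Gm11295. The other 7 members share none.

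**Figure D4:**
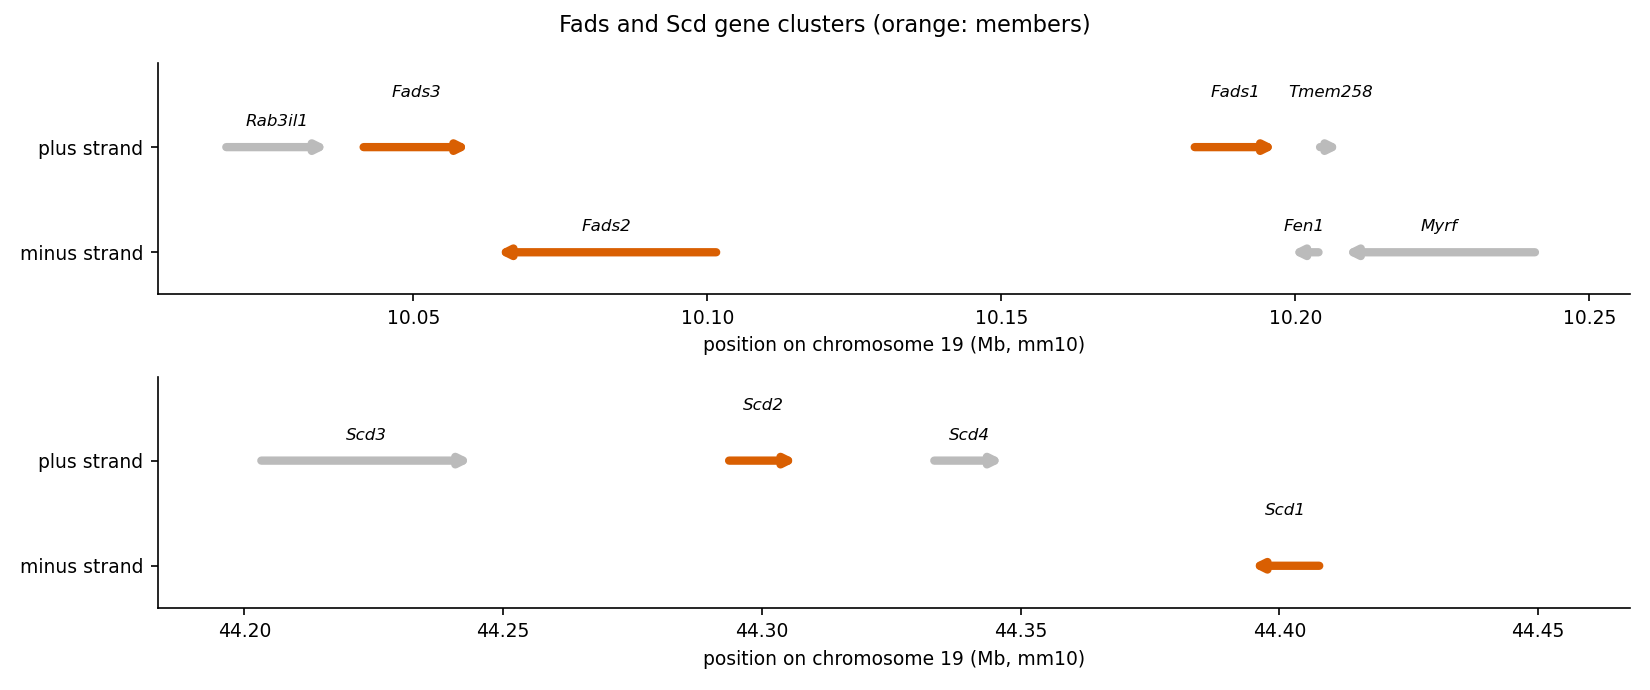
Map of the Fads cluster (top) and the Scd cluster (bottom) on chromosome 19 of mm10, with position in Mb on the x axis, strand on the y axis, members in orange and other genes in grey, drawn to scale. Fads2 and Scd1 lie on the minus strand and the other members shown on the plus strand.

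Promoter sequences from RefSeq (GRCm38.p6) were matched by symbol for 6 of the 10 members, with 8 promoters in all, and those of Elovl3, Fads1, Scd1 and Scd2 were missing. They are shown for the 3 of these members with the largest changes under CR at a single day, Elovl5, Elovl6 and Fads2, as the 250 bases before the start of transcription. Motifs were searched on both strands: the E-box CACGTG, the sterol regulatory element TCACNCCAC, the CCAAT box CCAAT, the GC box GGGCGG, the nuclear receptor half-site AGGTCA and the TATA box TATAAA. Capitals mark the matches, and a match describes the letters only. The sequences are, at chr3:129532136-129532385 (plus), chr9:77917115-77917364 (plus) and chr19:10101504-10101753 (minus):
Elovl6 promoter: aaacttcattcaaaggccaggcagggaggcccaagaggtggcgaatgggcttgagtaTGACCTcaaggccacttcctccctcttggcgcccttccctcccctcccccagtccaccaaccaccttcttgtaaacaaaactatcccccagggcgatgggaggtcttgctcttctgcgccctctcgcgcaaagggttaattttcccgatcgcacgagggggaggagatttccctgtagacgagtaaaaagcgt
Elovl5 promoter: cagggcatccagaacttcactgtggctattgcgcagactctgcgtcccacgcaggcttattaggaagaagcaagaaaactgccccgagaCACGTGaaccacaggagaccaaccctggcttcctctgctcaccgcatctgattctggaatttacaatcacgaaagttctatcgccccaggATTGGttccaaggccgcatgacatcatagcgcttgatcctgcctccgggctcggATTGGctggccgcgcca
Fads2 promoter: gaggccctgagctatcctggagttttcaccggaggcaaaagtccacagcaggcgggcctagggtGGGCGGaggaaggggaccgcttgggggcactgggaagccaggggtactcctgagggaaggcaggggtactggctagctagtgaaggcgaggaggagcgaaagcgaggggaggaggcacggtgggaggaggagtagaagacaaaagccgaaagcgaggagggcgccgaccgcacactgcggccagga

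In the promoter of Elovl6 the capitals are 1 nuclear receptor half-site, on the reverse strand as TGACCT. That of Elovl5 holds 1 E-box, CACGTG, and 2 CCAAT boxes on the reverse strand as ATTGG, and that of Fads2 holds 1 GC box. The counts over promoters took in 250 bases before the start of transcription and also 50 bases after it, which are not shown. Over the 8 promoters, 1 held the E-box, as did 7.15% of all 32851 promoters in the table, 0 held the sterol regulatory element (1.24%), 3 the CCAAT box (37.4%), 5 the GC box (35.7%), 2 the nuclear receptor half-site (16.3%) and 0 the TATA box (13.6%).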

How the data were processed

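The authors sequenced liver RNA, mapped reads to mm10 with BWA and deposited FPKM values. The file header names HOMER, which counted exon reads and kept 1 transcript for each gene. Base calling with CASAVA 1.8.2, FastQC and DESeq2 are named in the submitters' processing notes or methods. The Con columns of day 30 could be tied to their group but not to single samples.

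FPKM are not counts, so limma 3.58.1 (R 4.3.3; empirical Bayes with a trend) was run on log2(FPKM + 1), pseudocount 1, for the 10593 of 24537 genes with at least 1 FPKM in at least 3 libraries, in 1 model of the 4 groups, and with day as a covariate for both days together. Tests were 2-sided, with Benjamini-Hochberg adjustment over all genes tested and calls at an adjusted p under 0.1. The fits were tested on simulated data. Low FPKM values stepped in whole reads, which gave each library's depth (100.0% of 1500 low values per library within 0.1 of a whole read), and 78.1% to 84.3% of the depth lay on exons. Depth limits the precision of genes with few reads. Scd2 was tested by exact permutation.

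Alternatives were another pseudocount (0.1), no filter, median-ratio and quantile scaling, TPM, no trend, fits of only the groups compared, voom on recovered reads, an adjusted p of 0.05, a fold of at least 2, a replicate block and each library left out. At day 25 every same-numbered pair of Con and CR libraries deviated together from the group means over all genes (r = 0.106 to 0.368, mean 0.26). The mean of -0.131 for other pairs adds no separate support, because deviations from the mean of a group sum to 0. Those numbers were used as the replicate block, from the data and not from the labels, and the pairing itself was not tested.

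Members and gene lists were chosen with earlier results of these data known. Of each list the called genes could be named, up to 4 per direction by size, and for likeness the 4 genes with the highest correlation to each of 3 members. The values of 1 listed gene are not reported here, although it is in the counts. Python 3.11.15, pandas 2.3.3, numpy 2.4.6, scipy 1.17.1 and matplotlib 3.10.9 were used. Promoters were those of RefSeq, GRCm38.p6.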

Additional observations from a re-analysis of the deposited data

How the results depend on the processing

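Of the counts of called members, 4 at day 25, 5 at day 30 and 6 over both days fell to 2, 1 and 1 when a fold of at least 2 was required as well. Without Con9 or CR8 and with median-ratio scaling that 2 would be 1, as Elovl5 was under the fold; without CR9 Elovl5 was under it and Fads2 over it. At day 30 Elovl6 was just over it with voom. In the interaction, 0 became 1 with a pseudocount of 0.1. Between the days in CR mice, 2 became 1 with no filter, with only the groups compared and at an adjusted p of 0.05. With 1 library left out the counts ran from 4 to 4 at day 25, 3 to 6 at day 30, 0 to 1 in the interaction, 0 to 0 between the days in Con mice, 1 to 2 in CR mice and 5 to 6 over both days. The lowest count at day 30 came without CR10 and the highest without Con8 or Con9. The cause was not tested.

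A change of sign was seen for members that were not called in the comparison concerned, and for none that was. Elovl1 at day 25 was 0.013 with median-ratio scaling. With 1 library left out, values at day 25 ran from -0.56 to 0.40 for Scd1, -0.072 to 0.19 for Fads3, -0.19 to 0.070 for Elovl1 and -0.0068 to 0.097 for Elovl6. In the interaction they ran from -0.90 to 0.061 for Scd1 and -0.11 to 0.21 for Elovl2. Between the days they ran from -0.30 to 0.011 for Fads2 in Con mice, and in CR mice from -0.24 to 0.026 for Fads3, -0.20 to 0.74 for Scd1 and -0.020 to 0.19 for Fads1. The cause was not tested. With 1 library left out, 603 member values kept their sign and side of the threshold, 19 lost a call, 6 gained one and 20 changed sign. Under the other alternatives these numbers were 518, 19, 2 and 1.

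With the replicate block at day 25, 4 members were called, and with a replicate block by column number at day 30, 5; no member call changed. At day 30 the numbers are only shared (mean r = 0.114, from 0.0457 to 0.181), and not every library correlated best with its own number. The mean of -0.0575 for other pairs adds no separate support there either, for the same reason as at day 25. The block at day 30 moved the partner list from 2 to 1 called and the further elongases and desaturases from 1 to 0.

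Over all genes, calls numbered 1582 at day 25, 2619 at day 30, 34 between the days in CR mice and 4304 over both days. An adjusted p of 0.05 gave 969, 1740, 7 and 3332, and the added fold of 2 gave 157, 234, 15 and 176. In CR mice between the days there were 21 with the pseudocount of 0.1, 8 with no filter and 52 with voom, and in the interaction 1 became 3 with that pseudocount and 0 with quantile normalization, voom or an adjusted p of 0.05. In Con mice between the days 0 became 1 with the pseudocount of 0.1 and with TPM. With 1 library left out the calls over all genes ran from 893 (without CR9) to 1589 at day 25, 1497 (without CR10) to 2680 at day 30, 0 to 5 in the interaction, 0 to 22 (without Con7) between the days in Con mice, 2 (without CR7) to 45 in CR mice and 3698 to 4198 over both days. The cause was not tested. Groups of 3 mice limit all comparisons, and depth limits those of Scd2 and of Elovl3 in CR mice of day 30, which rested on 62 to 166 reads. Values of mRNA say nothing of enzyme protein or activity or of fatty acid composition, which were not analysed here.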
